A study of Homo sapiens with 6 samples.

Results

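A set of 9 tight junction genes was followed through the RNA-seq counts of HCCLM3 cells: the claudins CLDN1, CLDN4, CLDN7 and CLDN12, occludin (OCLN), tricellulin (MARVELD2), the junctional adhesion molecule F11R, and the plaque proteins TJP1 and CGN. They were chosen by name, with earlier results of these data known, and all 9 have a row among the 20263 of the count table. HCCLM3 is a human hepatocellular carcinoma line. The 3 CC-885 libraries came from cells kept for 24 h with CC-885, a compound that redirects the cereblon ubiquitin ligase to new proteins. The 3 DMSO libraries came from cells without it, labelled DMSO, a common solvent, also with a time of 24 h. No dose is stated. Nothing in the labels says whether replicates were separate cultures, so the p-values measure the spread between libraries, which may be technical. What limits the model is that it is a single cell line.

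Tight junctions seal the space between neighbouring epithelial cells near their apical side. Claudins cross the membrane and polymerise into the strands that form the seal, and the mix of claudins sets which ions and solutes pass. Occludin and tricellulin belong to the MARVEL family and sit in the strands and at corners where cells meet, F11R is an immunoglobulin-type adhesion molecule, and the scaffold proteins TJP1 (also known as ZO-1) and cingulin (CGN) tie these membrane proteins to actin and myosin. In liver, tight junctions close off the bile canaliculi.

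Total counts ran from 30432509 to 39809131 per library. Correlations of log2 CPM (counts scaled to a common library total) were 0.977 or higher within a group and 0.946 or lower between groups. Of 13 hepatocyte and hepatocellular carcinoma markers 10 stayed below 1 CPM in every library, and 7 of them, ALB, AFP, APOB and TTR included, had no count in any. The keratins KRT8 (890 ± 106 CPM with CC-885, 1252 ± 136 with DMSO) and KRT18 (657 ± 58.5 and 758 ± 66.1 CPM) were abundant. The labelled liver origin was therefore not visible in its defining secreted proteins. Of the leukocyte markers 3 of 5 had no count in any library, and the summed list was 2.96 to 3.95 CPM with CC-885 and 2.87 to 4.05 CPM with DMSO. Markers of other lists moved with treatment. HNF4A, a hepatocyte transcription factor, fell from 1.25 ± 0.184 to 0.214 ± 0.183 CPM (log2 fold change -2.50, adjusted p = 0.00156 by edgeR). Its CC-885 libraries gave 0.167, 0.416 and 0.0581 CPM, and it passed the filter on low counts through the DMSO libraries. KRT8 also fell (-0.49, adjusted p = 0.0236). Of 5 bile duct markers 1 was called, KRT7, which rose from 433 ± 25.5 to 810 ± 94.6 CPM (0.90, adjusted p = 0.000438). Of 6 fibroblast markers PDGFRB (70.9 ± 10.7 to 14.1 ± 0.37 CPM, -2.33) and DCN (1.21 ± 0.308 to 0.126 ± 0.00902 CPM, -3.23) fell and COL1A1 rose (0.58). The summed fibroblast list was 152 to 186 CPM with CC-885 and 158 to 189 CPM with DMSO. DCN too passed the filter on low counts only through the DMSO libraries, and the sizes for HNF4A and DCN rest on very low values. Fits that left out a library are not given for these markers. Their part in the results for the tight junction genes was not tested.

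With CC-885 the tight junction genes moved in both directions. CLDN1 rose 17.2-fold and TJP1 3.27-fold, CLDN7 fell 2.84-fold, F11R 2.35-fold and OCLN 1.66-fold, and CLDN4, CLDN12 and CGN were not called. MARVELD2 was too low to be tested. At an adjusted p below 0.05, 2 of the 8 tested members passed as higher and 3 as lower, beside 25.8% of all 13444 tested genes higher and 26.8% lower. The members' median log2 fold change was -0.58, that of all tested genes -0.04. The 2 higher members lay above DMSO in each CC-885 library and the 3 lower ones below it, a separation that 61.1% of all tested genes showed in one direction or the other. Fold changes and adjusted p-values are from the edgeR quasi-likelihood test over all genes, and CPM are TMM-normalised. This scaling assumes that most genes keep their level between libraries, while 25.8% were called higher and 26.8% lower. Fold changes are relative to that assumption, which was not tested.

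**Figure D1:**
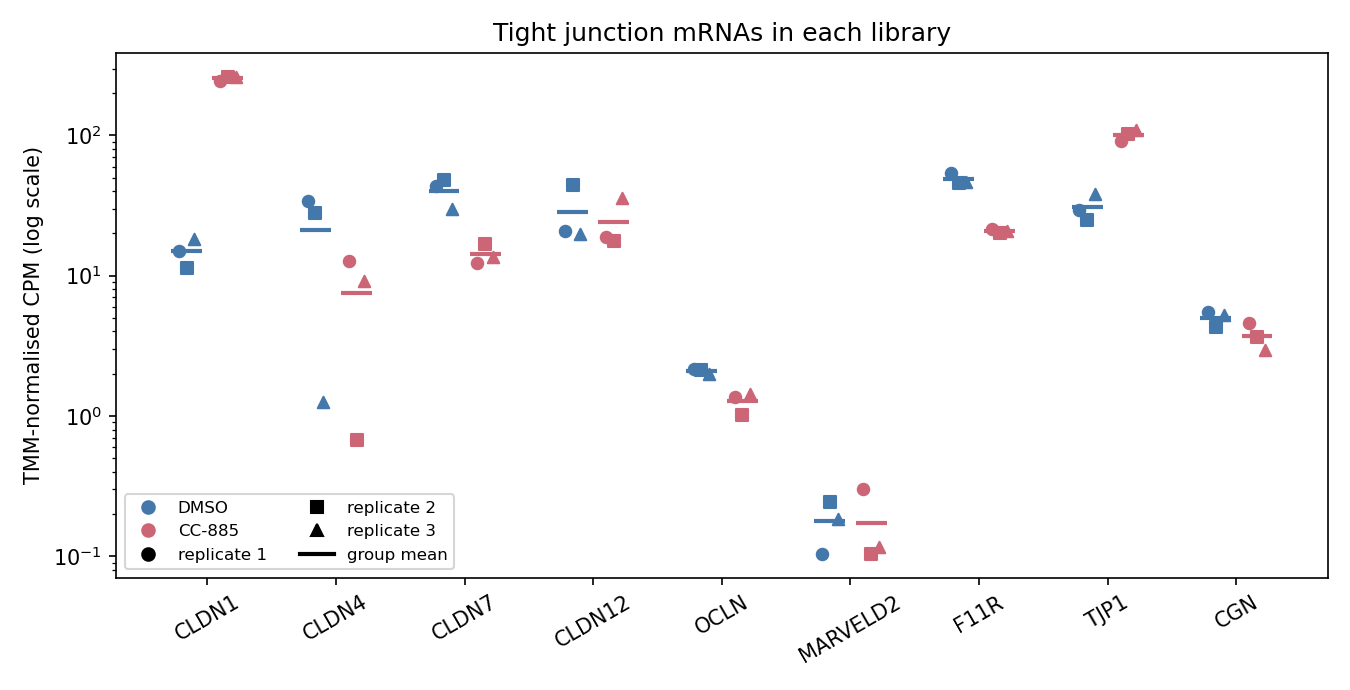
TMM-normalised CPM (log scale) of the 9 members in the 3 DMSO (blue) and 3 CC-885 (red) libraries, with the marker giving the replicate number and the line the group mean. CLDN1 and TJP1 lie higher in each CC-885 library, CLDN7, OCLN and F11R lower, and CLDN4 shows 1 library far below the others in each group.

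Among the claudins, CLDN1 (ENSG00000163347) had the strongest response. It encodes a sealing claudin that is widely expressed in epithelia, including liver, and serves as a co-receptor of hepatitis C virus. It stood at 15.1, 11.4 and 18.2 CPM in the DMSO libraries and at 245, 260 and 262 CPM in the CC-885 libraries. The groups were far apart, and the CC-885 libraries lay close to one another. On the log2 scale the difference was 4.10 (SE 0.18, adjusted p = 7.29e-08), and leaving out any single library kept it between 3.96 and 4.27. The genes with the profile most like that of CLDN1, by the root mean square difference of centred log2 CPM over the 6 libraries, were CCN1 (difference 0.125, log2 fold change 4.31), the endothelin gene EDN1 (0.127 and 3.95) and JUN (0.137 and 4.35). With groups so far apart, this measure mainly picks genes with a similar fold change. Shared regulation was not tested.

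CLDN7 (ENSG00000181885), a claudin that binds EPCAM, moved the other way. DMSO libraries gave 43.6, 47.9 and 29.6 CPM and CC-885 libraries 12.2, 16.8 and 13.6 CPM. DMSO replicate 3 was the lowest of its group and still lay above each CC-885 library. The log2 fold change was -1.51 (SE 0.20, adjusted p = 0.000106). Of its annotated exon bases, 10.8% are shared with a read-through gene on the same strand (ENSG00000262302), which stayed at or below 0.583 CPM in every library.

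CLDN4 (ENSG00000189143), known as a receptor of the Clostridium perfringens enterotoxin, was not called, and its libraries spread widely. DMSO gave 34.2, 28.1 and 1.26 CPM and CC-885 12.8, 0.676 and 9.21 CPM. DMSO replicate 3 and CC-885 replicate 2 lay 22.3-fold and 13.6-fold below the lower of the other 2 libraries of their groups, so the groups overlapped. Its log2 fold change was -1.50 with an SE of 1.52 (adjusted p = 0.462), and it moved from -0.94 without CC-885 replicate 2 to -2.10 without CC-885 replicate 1. No call was made without DMSO replicate 3 either (-2.05, adjusted p = 0.263). In CLDN7, CC-885 replicate 2 was the highest of its group and DMSO replicate 3 the lowest.

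CLDN12 (ENSG00000157224) encodes a claudin that lacks the C-terminal motif by which most claudins bind the PDZ domains of TJP1. It was not called, at 20.8, 44.5 and 19.7 CPM with DMSO and 18.9, 17.8 and 35.9 CPM with CC-885. A single library in each group, DMSO replicate 2 and CC-885 replicate 3, was about as high as the other 2 of its group together. Its log2 fold change was -0.23 (SE 0.45, adjusted p = 0.701), turned to 0.27 without DMSO replicate 2 (adjusted p = 0.551) and was -0.62 without CC-885 replicate 3 (adjusted p = 0.232). On the same strand the gene shares 5.15% of its exon bases with GTPBP10, 2.98% with CDK14, 5.5% with AC006153.1 and 4.09% with AC002456.2. GTPBP10 stood at 9.06, 20.7 and 22.4 CPM with DMSO and 32.4, 34.8 and 20.5 CPM with CC-885. Within CC-885 the library highest in CLDN12 was thus the lowest in GTPBP10. Within DMSO the library highest in CLDN12 lay between the others in GTPBP10. GTPBP10 itself was not called (adjusted p = 0.151). How reads of the shared bases were assigned is not stated, and the part of the overlapping genes in these values was not tested.

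**Figure D2:**
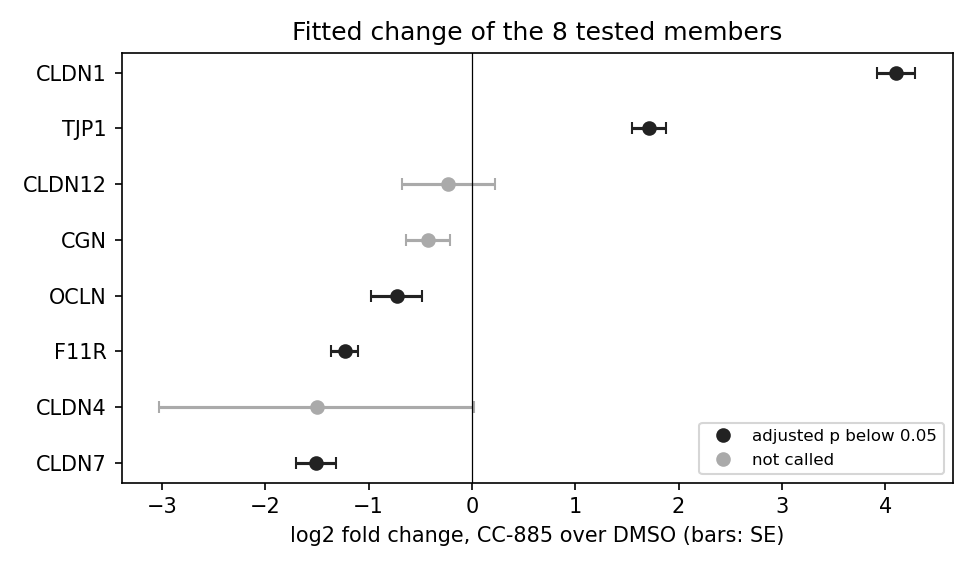
Log2 fold change of CC-885 over DMSO (horizontal axis, bars give the SE) for the 8 tested members, black where the adjusted p was below 0.05. CLDN1 and TJP1 lie to the right, CLDN7, F11R and OCLN to the left, and the bar of CLDN4 (SE 1.52) is the widest.

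The makeup of claudin mRNA differed between the groups. Levels of different genes were compared per kilobase of annotated exon, over 23 claudin genes. CLDN22 was left out because all its exon bases lie within WWC2. CLDN7 held 47.2, 48.0 and 46.6% of the summed claudin level in the DMSO libraries and 5.99, 8.0 and 6.21% in the CC-885 libraries. CLDN1 held 11.1, 7.78 and 19.4% with DMSO and 81.7, 84.1 and 81.3% with CC-885. The leading claudin was therefore CLDN7 in each DMSO library and CLDN1 in each CC-885 library. The summed level was 34.2 ± 7.66 CPM per kilobase with DMSO and 84.7 ± 3.05 with CC-885 (mean ± SD, n = 3). For each of these 3 quantities a two-sided exact permutation test gave p = 0.1, the smallest that 3 against 3 libraries allow (0.12 adjusted over 6 such tests). Because the shares of a library add up, a higher share of CLDN1 lowers the others. The share of CLDN4 was 19.6, 14.9 and 1.05% with DMSO and 3.31, 0.170 and 2.23% with CC-885 (exact permutation p = 0.3, also when adjusted). CLDN12 held 4.21 ± 1.62% with CC-885 and 12.1 ± 4.11% with DMSO, although its own level was not called.

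**Figure D3:**
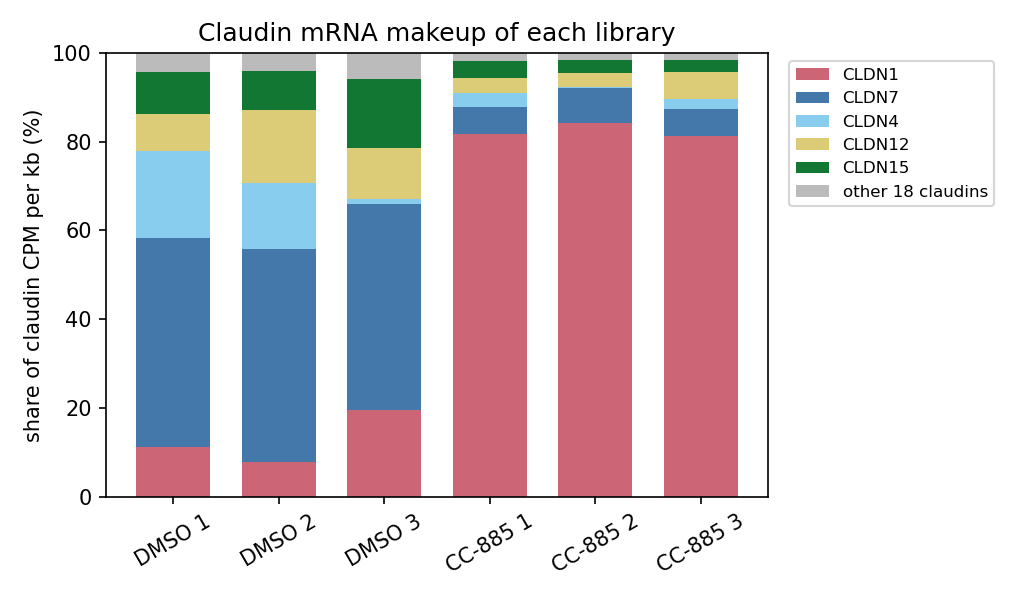
Share of the summed claudin level (CPM per kilobase of exon, in percent) held by CLDN1, CLDN7, CLDN4, CLDN12, CLDN15 and the remaining claudins in each of the 6 libraries. CLDN7 takes 46.6% or more of each DMSO bar, and CLDN1 81.3% or more of each CC-885 bar.

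Among the other 20 claudin genes 4 had no count in any library, 17 stayed below 1 CPM, and 6 were tested. One rose and 3 fell (median log2 fold change -0.33). The counts of this and the following lists stand beside 25.8% higher and 26.8% lower among all tested genes, whose median was -0.04, and nothing particular to a list is read from calls in both directions. The higher one was CLDN6, a claudin of embryonic epithelia, at 0.104, 0.0545 and 0.0614 CPM with DMSO and 0.633, 0.546 and 0.668 CPM with CC-885 (log2 fold change 2.99, adjusted p = 0.000474). CLDN11, the claudin of myelin and testis, went from 0.554 ± 0.0682 to 0.0617 ± 0.0672 CPM (-3.16, adjusted p = 0.0021). The size rests on very low values, at -4.18 without CC-885 replicate 1 and -2.59 without CC-885 replicate 3. CLDN18 went from 1.7 ± 0.207 to 0.895 ± 0.189 CPM (-0.93, adjusted p = 0.0155). Leaving out DMSO replicate 2, CC-885 replicate 3 or CC-885 replicate 2 ended that call, with adjusted p-values of 0.0517, 0.0596 and 0.0535. CLDN15, named after its values were seen as the remaining lower gene, went from 10.6 ± 0.872 to 7.58 ± 1.04 CPM (-0.48, adjusted p = 0.0247). Its call ended in 4 of the 6 fits that left out a library, CC-885 replicates 2 and 3 (adjusted p = 0.0949 and 0.0879) and DMSO replicates 1 and 3 (0.0517 and 0.0645). The levels of CLDN6, CLDN11 and CLDN18 are low beside those of CLDN1 and CLDN7, and CLDN6 is above 0.5 CPM only with CC-885. CLDN6 passed the filter on low counts only through the CC-885 libraries, and CLDN11 only through the DMSO libraries. The group in which each is high thus decided that it was tested. In the edgeR fit without that filter the adjusted p was 0.00125 for CLDN6 and 0.0042 for CLDN11. Of the exons of CLDN11, 18.3% are shared with another gene on the same strand, and 2.3% of those of CLDN6 with TNFRSF12A on the opposite strand.

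Occludin (OCLN, ENSG00000197822) gave 2.17, 2.12 and 1.99 CPM with DMSO and 1.37, 1.01 and 1.42 CPM with CC-885. Each CC-885 library lay below each DMSO library. The log2 fold change was -0.73 (SE 0.25, adjusted p = 0.0288). This call rests on counts of 39 to 83 per library. The adjusted p was 0.0679 by DESeq2's Wald test. It was 0.0588 when DMSO replicate 2 was left out, 0.0875 for DMSO replicate 1 and 0.124 for CC-885 replicate 2, so the call did not hold in these 4 settings. GENCODE 29 lists a pseudogene copy, OCLNP1, and OCLN is uncertain to the extent that reads were split between both.

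Tricellulin (MARVELD2, ENSG00000152939) was barely detected, with 4, 9 and 6 counts in the DMSO libraries and 9, 4 and 4 in the CC-885 libraries. The groups overlapped. Without a filter on low counts its log2 fold change was -0.05 with an SE of 0.80 (adjusted p = 0.971), and a difference was not detectable at this depth.

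F11R (ENSG00000158769), also known as JAM-A, fell evenly: 54.3, 45.7 and 46.6 CPM with DMSO against 21.7, 20.0 and 20.7 CPM with CC-885. Libraries within a group were close together, and the groups were apart. The log2 fold change was -1.23 (SE 0.13, adjusted p = 2.25e-05). A read-through gene (ENSG00000270149) covers 36.6% of its exon bases on the same strand and stood at 0.0921 CPM or less in every library. By the same measure of likeness, the genes nearest to F11R were CDON (difference 0.0583, log2 fold change -1.25) and CAMKK1 (0.0586 and -1.27).

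The other membrane proteins of tight junctions had 8 of 12 genes tested, 2 higher and 2 lower (median log2 fold change -0.46). LSR, which recruits tricellulin to corners between cells, rose from 5.25 ± 0.752 to 7.99 ± 0.551 CPM (0.61, adjusted p = 0.0109). CLMP, a relative of the coxsackievirus and adenovirus receptor, fell from 109 ± 8.43 to 67.7 ± 4.03 CPM (-0.68, adjusted p = 0.000788). JAM2 went from 0.465 ± 0.121 to 0.0943 ± 0.0854 CPM (-2.34, adjusted p = 0.0142), a call lost without DMSO replicate 2 (adjusted p = 0.0641). It was -2.99 without CC-885 replicate 1 and -1.70 without CC-885 replicate 2. JAM2 passed the filter on low counts only through the DMSO libraries, where it is higher (adjusted p = 0.0293 by edgeR without that filter). ESAM, an adhesion molecule of endothelial junctions, gave 38.5, 48.2 and 31.9 CPM with DMSO and 163, 171 and 69.9 CPM with CC-885 (1.76, adjusted p = 0.0098). CC-885 replicate 3 was much lower than the other 2 of its group, and the call was lost without DMSO replicate 3 (adjusted p = 0.0768). Of 5 endothelial markers 3, among them PECAM1 and KDR, stayed below 1 CPM in every library. The summed level of the 5 was 3.11 to 4.93 CPM with CC-885 and 0.872 to 1.41 CPM with DMSO, with 2 called higher, and its part in the ESAM values was not tested.

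TJP1 (ENSG00000104067), the PDZ scaffold to which claudins, occludin and F11R attach, rose together with CLDN1. It stood at 29.4, 25.0 and 38.2 CPM with DMSO and 90.9, 102 and 110 CPM with CC-885. The lowest CC-885 library lay well above the highest DMSO library. Its log2 fold change was 1.71 (SE 0.17, adjusted p = 1.24e-05). Cingulin (CGN, ENSG00000143375), which links TJP1 to myosin and to a guanine nucleotide exchange factor of RHOA, gave 5.51, 4.33 and 5.22 CPM with DMSO and 4.63, 3.67 and 2.93 CPM with CC-885. The groups overlapped by 1 library, and the log2 fold change of -0.42 (SE 0.21, adjusted p = 0.109) was not called. It passed without CC-885 replicate 1 (-0.60, adjusted p = 0.0498).

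Per kilobase of exon, the members kept a wide range of levels. With DMSO the order was CLDN7 (16.2 CPM per kilobase), F11R (9.65), CLDN4 (4.50), CLDN12 (4.20), CLDN1 (4.06), TJP1 (2.74), CGN (0.759), OCLN (0.310) and MARVELD2 (0.0332). The library values of CLDN4, CLDN12, CLDN1 and TJP1 overlapped from each to the next, and those of the other neighbours did not. With CC-885 the order was CLDN1 (69.8), TJP1 (8.98), CLDN7 (5.70), F11R (4.11), CLDN12 (3.59), CLDN4 (1.61), CGN (0.566), OCLN (0.188) and MARVELD2 (0.0323). There F11R, CLDN12, CLDN4 and CGN overlapped from each to the next. Exon lengths are those of GENCODE 29, and the transcripts used by these cells are not known from the counts.

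Sequences upstream of the start sites are shown for the members whose mRNA changed most and for CLDN4, whose window held AP-1 motifs. RefSeq (GRCh38.p14) gave 13 start sites for 8 members, with no entry for F11R, and the 250 bases before each were searched on both strands for TGANTCA (AP-1), CACCTG (the E-box bound by SNAI and ZEB factors), GGGCGG (GC box), TATAAA and AACNGGTT (bound by GRHL factors). For CLDN1 and TJP1 the window at the outermost start is printed as far as it lies outside annotated exons of the gene. For CLDN4 and CLDN7 up to 30 bases around each match are printed, with capitals for AP-1 or E-box letters in all of them. The windows are CLDN1 chr3:190322476-190322696 (minus strand), TJP1 chr15:29969050-29969299 (minus strand), CLDN4 chr7:73830746-73830771 and chr7:73830824-73830853 (plus strand), and CLDN7 chr17:7262635-7262664, chr17:7262596-7262625 and chr17:7262481-7262510 (minus strand).
CLDN1 upstream: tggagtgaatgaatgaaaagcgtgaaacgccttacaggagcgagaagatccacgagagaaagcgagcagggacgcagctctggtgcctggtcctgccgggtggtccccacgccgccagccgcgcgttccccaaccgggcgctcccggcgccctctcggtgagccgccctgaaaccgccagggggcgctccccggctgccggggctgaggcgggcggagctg
TJP1 upstream: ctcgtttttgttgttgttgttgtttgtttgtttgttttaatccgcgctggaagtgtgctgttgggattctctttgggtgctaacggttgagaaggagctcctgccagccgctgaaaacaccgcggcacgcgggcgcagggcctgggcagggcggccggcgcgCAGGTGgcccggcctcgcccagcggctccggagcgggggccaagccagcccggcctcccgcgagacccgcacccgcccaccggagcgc
CLDN4 first AP-1 match: ctgggctgTGATTCAgtgtctgtctc
CLDN4 second AP-1 match: agactggatagTGACTCAgggacccggggc
CLDN7 first E-box: tttcttcctcctCACCTGggcaaggagggg
CLDN7 second E-box: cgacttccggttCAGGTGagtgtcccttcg
CLDN7 inner pair of E-boxes: cctacatatactCAGGTGcgcccCACCTGt

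The AP-1 letters occurred in the window of CLDN4 only, beginning 242 and 161 bases before the start, and in 6.57% of 35116 windows of the same length over all RefSeq starts. CLDN1 held no match to AP-1 or the E-box. The E-box occurred 4 times before the inner start of CLDN7 (174, 135, 20 and 9 bases before it) and in no other window of that gene. It occurred once before the outermost start of TJP1, once before each of 2 starts of OCLN, and in 17.5% of all windows. The GC box was present in at least 1 window of each of the 8 members but CLDN12 and in 42.6% of all windows, the GRHL letters only in that of CGN (1.49% of all), and TATAAA in none (10.7% of all). A match describes these letters and not binding.

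Plaque and polarity proteins other than TJP1 and CGN included 28 tested genes of 29, with 11 higher and 6 lower (median log2 fold change 0.32). RAPGEF2, an exchange factor of RAP1 at junctions, rose from 49.1 ± 1.78 to 197 ± 21.7 CPM (2.0, adjusted p = 1.26e-06), and USP53, which binds TJP1, from 16.3 ± 2.41 to 56.9 ± 12.1 CPM (1.80, adjusted p = 1.38e-05). TJP3, a further ZO protein, fell from 2.3 ± 0.675 to 0.732 ± 0.205 CPM (-1.63, adjusted p = 0.00159), and CASK, a scaffold of the same family, from 48.9 ± 1.06 to 34.5 ± 0.0758 CPM (-0.50, adjusted p = 0.00354). Of the ZO relatives, TJP1 was thus higher and TJP3 lower.

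Proteins that bind claudins or control their turnover had 8 of 10 genes tested, with 2 higher and 3 lower (median -0.19). The membrane protease ST14, matriptase, fell from 45.4 ± 7.14 to 9.28 ± 0.971 CPM (-2.29, adjusted p = 1.52e-06), and its inhibitor SPINT2 from 8.43 ± 1.41 to 2.11 ± 0.19 CPM (-2.0, adjusted p = 1.28e-05). The ubiquitin ligase LNX2, a relative of one that targets claudins, rose from 14.7 ± 1.95 to 30.7 ± 1.1 CPM (1.07, adjusted p = 0.000117), and ITCH, a ligase of occludin, from 63.4 ± 6.92 to 116 ± 7.98 CPM (0.87, adjusted p = 0.000234).

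The neighbouring junctions and the regulators of epithelial junction genes had calls in both directions, as had all genes tested. Of 14 adherens junction genes 3 were higher and 2 lower (median 0.07). AFDN, the nectin-binding scaffold that also binds TJP1, rose (34.4 ± 5.62 to 60.5 ± 2.93 CPM, 0.82, adjusted p = 0.000615), as did the actin-binding LIMA1 (1.20, adjusted p = 0.00103) and, named after its values were seen, NECTIN3 (0.45, adjusted p = 0.0157), and the nectins NECTIN4 (-1.49, adjusted p = 0.00101) and NECTIN1 (-0.84, adjusted p = 0.00189) fell. Of 12 desmosome genes 8 were tested, with 2 higher and 2 lower (median 0.10): the plakophilins PKP4 (0.80, adjusted p = 0.000969) and PKP2 (0.63, adjusted p = 0.00625) rose, and PKP3 (-0.64, adjusted p = 0.00215) and PERP (-0.72, adjusted p = 0.00149) fell. Of 15 transcription and splicing regulators 10 were tested, with 4 higher and 2 lower (median 0.25). ZEB2, a repressor of epithelial genes, rose from 7.45 ± 0.969 to 28.6 ± 4.44 CPM (1.94, adjusted p = 6.32e-06), and GRHL1, an activator of them, from 7.38 ± 1.83 to 15.5 ± 1.41 CPM (1.07, adjusted p = 0.00086). TWIST1 (-1.11, adjusted p = 0.000288) and TWIST2 (-0.76, adjusted p = 0.00301) fell. The other higher regulators, named after their values were seen, were the repressors SNAI2 (0.58, adjusted p = 0.0152) and ZEB1 (1.27, adjusted p = 0.0429). ZEB1 stood at 42.8, 32.5 and 89.0 CPM with CC-885 and 20.9, 20.5 and 26.9 CPM with DMSO, with CC-885 replicate 3 far above the others. Its log2 fold change was 0.73 without that library (adjusted p = 0.0121), and the call ended without CC-885 replicate 1 (0.0555) or DMSO replicate 1 (0.139), 2 (0.144) or 3 (0.14). SNAI2 was not called without DMSO replicate 1 (adjusted p = 0.0634), DMSO replicate 2 (0.0503) or CC-885 replicate 3 (0.0747), nor NECTIN3 without DMSO replicate 1 (0.0709), CC-885 replicate 3 (0.0613) or CC-885 replicate 2 (0.0599).

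**Figure D4:**
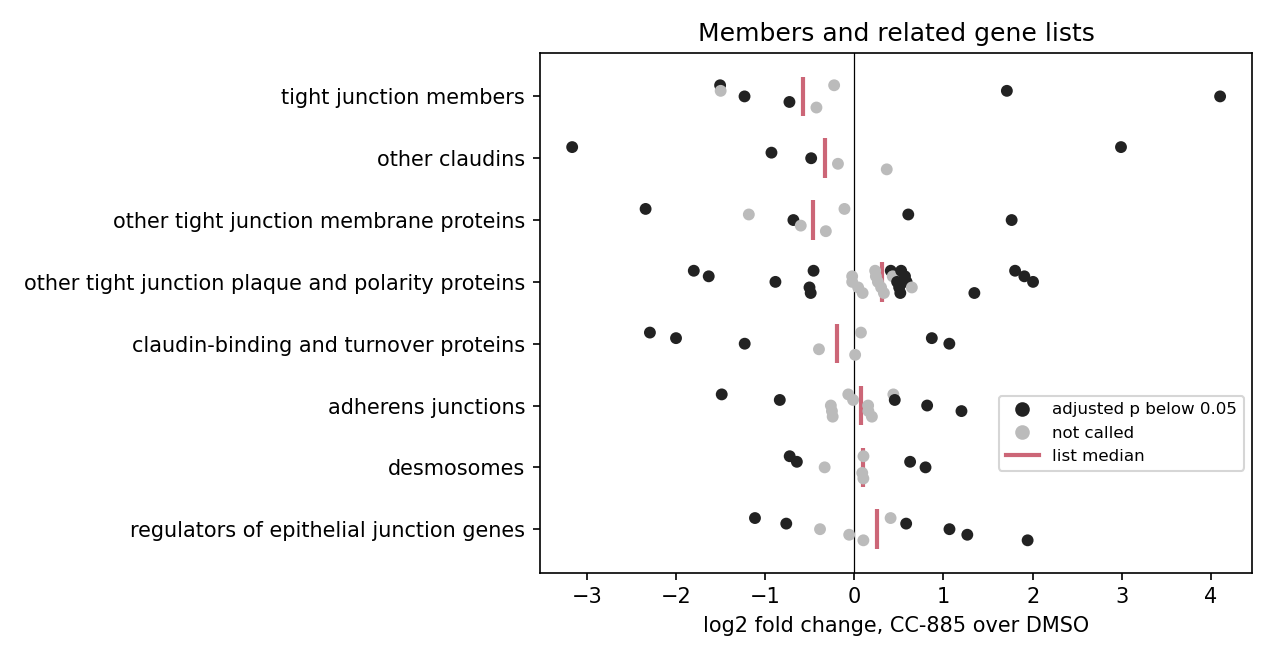
Log2 fold change of CC-885 over DMSO for each tested gene of the tight junction members and of 7 related lists (rows), black where the adjusted p was below 0.05, with the red line at the list median. Each row holds black points on both sides of 0, and the medians run from -0.58 for the members to 0.32 for plaque and polarity proteins.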

How the data were processed

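The authors deposited raw counts as whole numbers for each gene, per the file headers and the values. RNA was made into libraries with an mRNA kit, per the labels' protocols. No source used here names the aligner, counter, annotation or strand setting. GRCm38 and mm10, both mouse builds, stand in the submitters' processing notes, although the rows are human Ensembl genes, so positions are given only for the RefSeq promoters. The lowest counts, of a few reads, were mostly even, and whether fragments were counted more than once was not tested. Symbols came from a table of gene names (20148) or GENCODE 29 (76), leaving 39 rows without one.

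The comparison used edgeR 4.0.16 in R 4.3.3 with TMM factors, filterByExpr with a minimum count of 10 and the robust quasi-likelihood F test without covariates. P-values were adjusted by Benjamini-Hochberg across 13444 genes, with calls at an adjusted p below 0.05. The SE is the absolute log2 fold change divided by the square root of F. The fit was also tested on simulated counts in which few genes were changed. With 25.8% of tested genes called higher and 26.8% lower here, that setting differs from these data. Alternatives were DESeq2 1.42.0 (size factors, Wald test), limma-voom (limma 3.58.1), library size alone, no filter, a CPM of 5 in 3 libraries, a replicate block, and each library left out. Text on related lists names up to 2 higher and 2 lower called genes with the smallest p, and for CLDN1 and F11R up to 3 genes of most similar profile. A few genes that fall under these rules are not reported here. In the related lists, genes outside this rule are marked as chosen after their values were seen. Cell type markers fall outside the rule, and those given with a change were picked after their values were seen. The members and lists were chosen with earlier results of these data known.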

Additional observations from a re-analysis of the deposited data

How the results depend on the processing

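The count of members called higher was 2 under every alternative run, and the count called lower was 2 to 4. With the replicate number as a replicate block, 2 members were higher and 3 lower, no member's call changed, and 7273 genes were called in all, 6904 of them among the 7069 called without it. Same-numbered libraries deviated together with correlations of 0.0958, 0.0311 and 0.0722, and not every library correlated best with its own number, so the numbers were not taken as pairs. CLDN1, TJP1, CLDN7 and F11R kept direction and call under all alternatives run. OCLN lost its call under 4. OCLN and CGN were not tested with the CPM minimum of 5. CLDN12, never called, ran from -0.62 without CC-885 replicate 3 to 0.27 without DMSO replicate 2, and no other member changed sign. Counts over all genes moved by less than 1.5 times. Scaling by library size alone moved the median of all genes from -0.04 to -0.10. For 36 other named genes, 20 alternative values lost a call and 442 kept direction and call. Without a filter on low counts ZEB1 was not called (adjusted p = 0.0769). Depth limits MARVELD2, with 4 to 9 counts per library, and the weakest claudins, since 3 counts correspond to 0.0754 to 0.0986 CPM.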

Other observations

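The low CLDN4 values were set against all other genes, a comparison made after the values were seen. Among genes at 5 CPM or more in the other 2 libraries of the group, 5 to 14 per library lay at least 4-fold below both of them (6 of 10442 genes in CC-885 replicate 2, 8 of 10683 in DMSO replicate 3). CLDN4 was the 1 gene of 10192 that met this in CC-885 replicate 2 and in DMSO replicate 3 together. At 2-fold, 3 genes did, the others being CASP10 and PDP2. CC-885 replicate 2 and DMSO replicate 3 were picked from the CLDN4 values, and other pairs of libraries were not searched. Other genes dipped in 1 library of each group too. MAFG gave 170, 167 and 39.8 CPM with CC-885 and 131, 142 and 28.8 CPM with DMSO. HYPK gave 3.83, 23.1 and 20.0 CPM with CC-885 and 15.5, 23.0 and 1.78 CPM with DMSO. Genes beside CLDN4 on chromosome 7 gave no such dip: STX1A stood at 20.1, 20.1 and 19.7 CPM with CC-885 and 10.1, 8.53 and 9.64 CPM with DMSO, and ABHD11 at 18.5, 22.1 and 15.7 CPM and 10.8, 8.47 and 11.2 CPM. CLDN3, the claudin gene next to CLDN4, was at 0.104 CPM or less in every library. In the libraries without the dip CLDN4 was at 12.8 and 9.21 CPM with CC-885 and 34.2 and 28.1 CPM with DMSO. These libraries were picked by their CLDN4 values, so no difference between the groups is read from them. The cause of the CLDN4 dip was not tested.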
